A study of Mus musculus with 15 samples.

Results

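The genes described here are 34 genes of cholesterol and fatty acid synthesis that are known targets or regulators of the sterol regulatory element-binding proteins (SREBPs). They were chosen by name, as the rows of the count table whose mouse Ensembl identifier maps to one of 34 symbols, out of 57186 genes in the table. All 34 had at least 10 counts summed over the libraries and were tested, among 19839 tested genes. They were divided into a sterol branch of 18 genes, a fatty acid branch of 11 genes, and 5 genes that regulate SREBPs or carry sterol. RNA sequencing was performed on RAW 264.7 cells, a mouse macrophage cell line, 6 h after dosing with silica nanoparticles, with 3 libraries in each of 5 groups. SNP100 and SNP50 were nonporous spheres with nominal diameters of 100 nm and 50 nm, given at 50 and 25 µg/mL. MSNPs were mesoporous and HMSNPs were hollow and mesoporous, both with a nominal diameter of 100 nm and both given at 200 µg/mL. The controls received no particles, and the labels name no genetic change in any group. The libraries of each group carry a number prefix of their own in the labels, so that treatment and whatever the prefix marks cannot be told apart. All libraries came from 1 cell line, and no source used here says whether replicates were separate cultures, so p-values measure the spread between these libraries, which may be technical.

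SREBPs are transcription factors made as precursors in the membrane of the endoplasmic reticulum. When membrane sterol is low, the escort protein SCAP moves the precursor to the Golgi, where proteases release the active factor. When sterol is plentiful, INSIG proteins hold SCAP back. SREBP-2, the product of Srebf2, mainly drives sterol synthesis and lipoprotein uptake, and SREBP-1, the product of Srebf1, mainly drives fatty acid synthesis. In macrophages, the liver X receptors (LXRs) respond to oxysterols by inducing sterol export and Srebf1. Saturated fatty acids made by the fatty acid branch are elongated and desaturated before they enter membranes.

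The sequences just before the start sites are shown first, because SREBPs act at promoters. RefSeq promoter windows on GRCm38.p6 were matched for 27 of the 34 genes (34 windows), and Stard4, Scd1, Scd2, Sqle, Fdps, Fdft1 and Fads1 are named only. The 250 bases before each start were searched on both strands for a sterol regulatory element (TCACNCCAC), the CCAAT box bound by NF-Y, a partner of SREBP (CCAAT), and an E-box (CACGTG). Matches of different motifs did not overlap one another in any of these windows. The windows of 5 genes are printed 5′ to 3′ in the direction of transcription, with motif matches in capitals, and those of CCAAT on the other strand read ATTGG. Hmgcs1 is shown as the window with a match to the sterol regulatory element, and Hsd17b7 and Insig1 as windows with both a CCAAT box and an E-box. Acss2 and Fads2 are shown as fatty acid genes that differed in opposite directions between HMSNP and MSNP.
Hmgcs1 (chr13:119690101-119690350, plus strand): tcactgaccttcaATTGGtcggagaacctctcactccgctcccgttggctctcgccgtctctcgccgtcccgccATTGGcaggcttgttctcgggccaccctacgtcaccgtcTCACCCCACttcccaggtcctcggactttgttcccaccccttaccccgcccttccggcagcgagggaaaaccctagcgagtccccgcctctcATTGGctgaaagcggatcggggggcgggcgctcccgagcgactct
Hsd17b7 (chr1:169969206-169969455, minus strand): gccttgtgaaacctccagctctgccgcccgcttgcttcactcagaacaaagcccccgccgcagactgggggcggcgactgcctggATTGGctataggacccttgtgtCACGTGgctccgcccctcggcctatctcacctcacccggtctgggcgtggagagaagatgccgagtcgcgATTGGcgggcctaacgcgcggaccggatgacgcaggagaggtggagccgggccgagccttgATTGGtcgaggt
Insig1 (chr5:28071162-28071411, plus strand): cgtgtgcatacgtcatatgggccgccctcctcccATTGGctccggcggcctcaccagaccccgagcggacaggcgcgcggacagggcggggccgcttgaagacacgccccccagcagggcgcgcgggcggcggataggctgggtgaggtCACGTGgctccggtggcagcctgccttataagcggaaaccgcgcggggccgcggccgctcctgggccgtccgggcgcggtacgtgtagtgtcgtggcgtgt
Acss2 (chr2:155517793-155518042, plus strand): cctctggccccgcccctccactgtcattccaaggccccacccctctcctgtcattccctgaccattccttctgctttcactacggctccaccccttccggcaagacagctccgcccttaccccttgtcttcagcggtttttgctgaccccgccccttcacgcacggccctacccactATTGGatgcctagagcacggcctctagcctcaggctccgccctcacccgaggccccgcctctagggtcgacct
Fads2 (chr19:10101504-10101753, minus strand): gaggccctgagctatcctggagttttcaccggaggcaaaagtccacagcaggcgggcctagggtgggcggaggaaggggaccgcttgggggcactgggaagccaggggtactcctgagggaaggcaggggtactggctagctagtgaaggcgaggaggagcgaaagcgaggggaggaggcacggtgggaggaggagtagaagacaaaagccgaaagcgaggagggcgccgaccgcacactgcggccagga

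The match to the sterol regulatory element in Hmgcs1 began 137 bases before the start that RefSeq gives, and the first bases after that start were not found in an annotated GENCODE transcript of the gene. It was found in 1 of the 34 windows, and in 1.05% of 32851 windows of all genes. A CCAAT box was found in 14 of 15 sterol branch genes with a window (93.3%), in 3 of 8 fatty acid genes (37.5%) and in 3 of 4 regulators (75.0%), against 37.5% of all genes. The Hmgcs1 and Hsd17b7 windows held 3 each, all on the other strand. The E-box was present in 5 of the 27 genes (18.5%), namely Hsd17b7, Sc5d, Dhcr7, Insig1 and Scap, against 6.86% of all genes. No match was found for Fads2, which says only that these letters are not in this window. A match is not a bound site, and binding was not measured.

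Total counts per library lay between 29369934 and 42617812, and the lowest count of a listed gene in any library was 69, for Lpin1. The 8 macrophage markers were above 1 CPM (the count scaled to a common library size), with sums of 15139 to 19173 CPM in the controls and 12753 to 13709 CPM with MSNP. The sums were 15376 to 16077 CPM with SNP100, 15335 to 15899 with SNP50 and 14642 to 15730 with HMSNP, and the part of these differences in the results was not tested. None of the markers of T cells, B cells, fibroblasts, epithelial cells, adipocytes or hepatocytes reached 1 CPM. Control replicate 3 stood apart from the other libraries. Set against Control replicates 1 and 2, short transcripts were more abundant in it and long ones less, with bin medians on the log2 scale that ran from 0.70 for the shortest genes to -0.86 for the longest (10 bins). The median transcript length was 2737 bases in the sterol branch, 4337 in the regulators and 5024 in the fatty acid branch. In Control replicate 3 the sterol genes lay higher by a median of 0.32 on the log2 scale, and the fatty acid genes lay lower, with a median of -0.44. Of the 9 listed genes called in none of 7 comparisons, this library had the highest CPM of all 15 for 5 and the lowest for 4. Without it, all of these 9 except Tm7sf2 were called in at least 1 comparison. Among the 25 called genes it was the highest for 4, the lowest for 2 and inside the range for 19. Values against the controls are therefore also given without it, and HMSNP versus MSNP and MSNP versus SNP100 contrast no control library, though the controls enter them through normalization, the count filter and the shared spread.

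**Figure D1:**
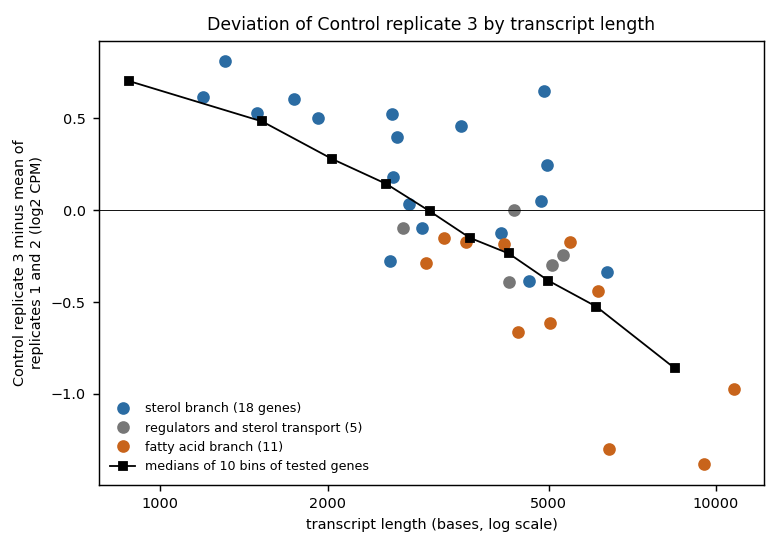
The log2 CPM of Control replicate 3 minus the mean of Control replicates 1 and 2 (y axis) against transcript length in bases (x axis, log scale), for each of the 34 genes as a coloured dot and for 10 bins of tested genes as black squares at their medians. The bin medians fall from 0.70 to -0.86, and the median of the sterol genes is 0.32 and that of the fatty acid genes -0.44.

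The listed genes together took 0.326% to 0.380% of the counts in the controls and 0.329% to 0.335% with SNP100. Their share was 0.290% to 0.311% with SNP50, 0.349% to 0.366% with MSNP and 0.427% to 0.441% with HMSNP. The HMSNP libraries therefore lay above every other library and the SNP50 libraries below every other library. In bulk RNA, a change in all cells and a change in a share of the cells cannot be told apart. Per kilobase of transcript, and in Control replicates 1 and 2, the highest levels were those of Fdps with 133 CPM, Fads2 with 123 and Fads1 with 105. The lowest were Lpin1 with 0.705, Scd1 with 1.83 and Acss2 with 2.22 CPM per kilobase. Of the related desaturases, Scd2 lay at 29.3 CPM per kilobase, above Scd1.

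Against the nontreated controls, MSNP raised 9 of the 34 genes and lowered 6, led by Acss2 and Insig1 upward and Fads2 downward. Over all tested genes, 11.8% were called higher and 11% lower in edgeR's quasi-likelihood test at an adjusted p under 0.05. The median log2 fold change was 0.14 for the listed genes and -0.05 for all tested genes. HMSNP raised 13 and lowered 2 of the 34, where 2.46% of tested genes were called higher and 2.7% lower, and the medians were 0.23 for the listed genes and -0.04 for all. Scd2, Scd1 and Hsd17b7 had the largest called increases, and Me1 and Fads2 were the genes that fell. All HMSNP calls except Scd2, and 5 of the MSNP calls (Pmvk, Hsd17b7, Stard4, Fasn and Me1), were lost in fits with only the 6 libraries compared. Leaving out Control replicate 3 brought the calls to 17 higher and 7 lower with MSNP and to 23 higher and 2 lower with HMSNP, while 29.5% and 8.66% of all tested genes were called in either direction.

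In the fit of all 15 libraries, fewer of the 34 genes were called with the nonporous particles, which were given at lower doses. SNP50 lowered 7 of the 34 genes (Sqle, Cyp51, Msmo1, Scd2, Fads1, Fads2 and Me1) and raised 0, where 0.958% of tested genes were called lower and 0.454% higher, and with only the 6 libraries compared 0 were called. The median was -0.23 for the listed genes and 0.00 for all tested genes, and 31 of the 34 fitted fold changes were below 0. SNP100 gave 0 called genes in edgeR, where 0.509% of tested genes were called higher and 0.403% lower. An unadjusted p under 0.05 was reached by 11 of the 34 and by 2085 of all 19839 tested genes. DESeq2 called 2 listed genes lower with SNP100, and it also called more of all tested genes lower than edgeR did. Leaving out Control replicate 3, 5 listed genes were lower with SNP100 (Lss, Scap, Scd2, Fads1 and Fads2) and 21 with SNP50, where 5.16% and 18.9% of all tested genes were called. Between SNP50 and SNP100, edgeR called 0 listed genes and 0% of all tested genes in either direction, and DESeq2 likewise called 0 of the 34. In edgeR, 13 of the 34 and 867 of all 19839 tested genes had an unadjusted p under 0.05. The median listed gene was at -0.17 in that comparison, and 28 of 34 were below 0. Without Control replicate 3, which is in neither group, 5 genes were lower with SNP50, where 0.433% of tested genes were called in either direction, and the doses of these groups differed. Without SNP50 replicate 1, the count of listed genes for SNP50 against the controls was 2, and the matching count over all tested genes is not given here.

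**Figure D2:**
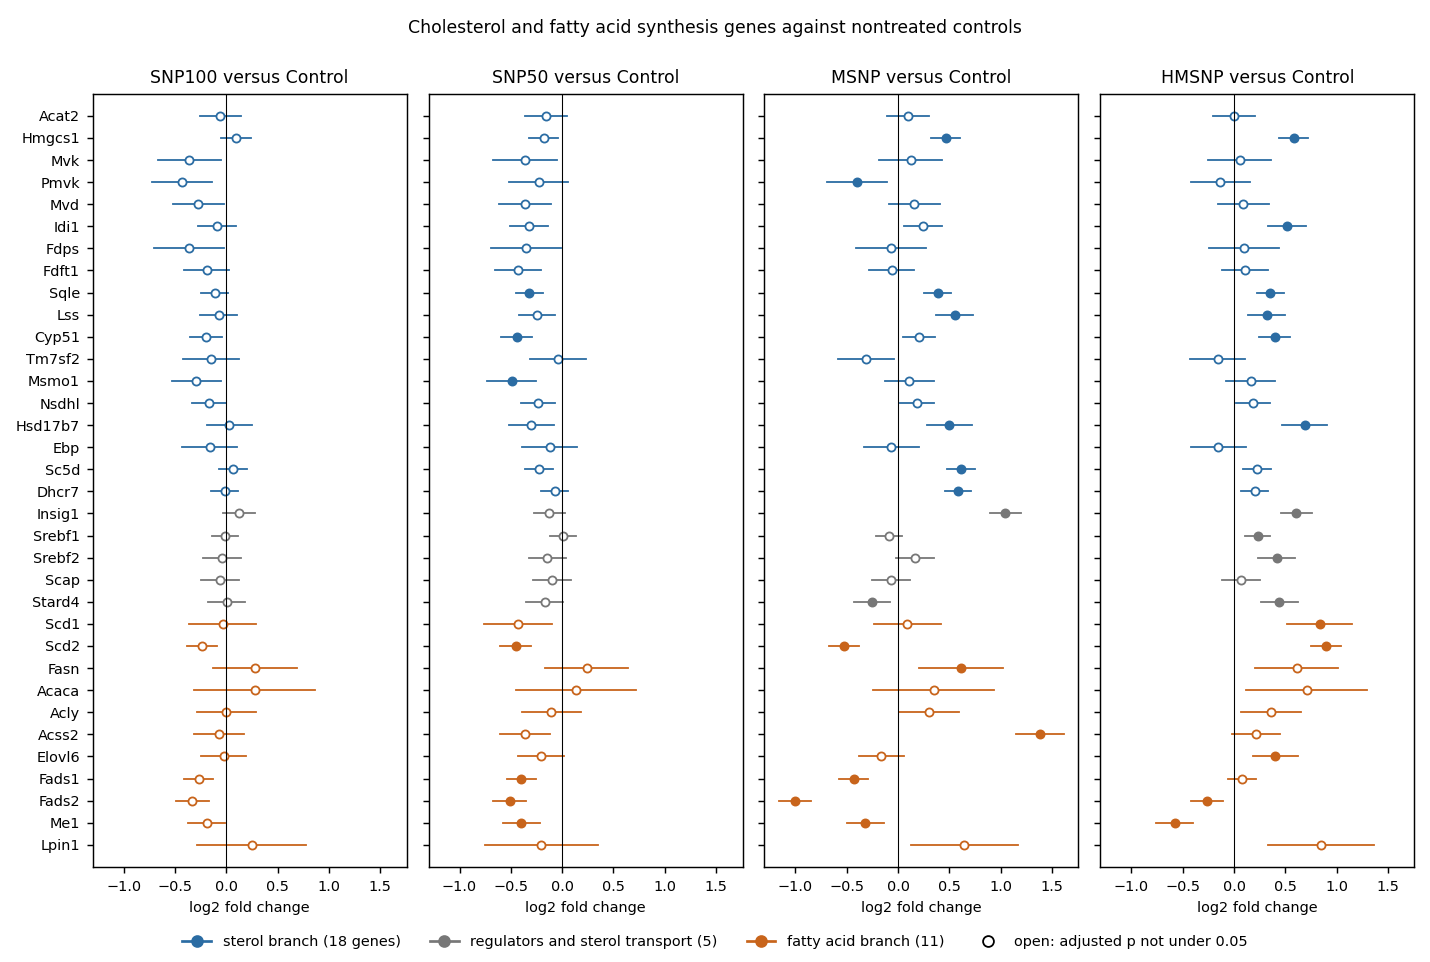
Log2 fold change against the nontreated controls (x axis) of the 34 genes (y axis) in each treated group (SNP100, SNP50, MSNP, then HMSNP), with 95% confidence intervals from 3 libraries a group as lines and branches as colours. Filled points have an adjusted p under 0.05 and number 0, 7, 15 and 15 in the 4 panels.

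The early sterol genes turn acetyl-CoA into mevalonate and then into the isoprenoid farnesyl diphosphate. Hmgcs1, the synthase that makes HMG-CoA, was measured at 107, 120.1 and 104 CPM in the nontreated controls, 118, 122 and 112 with SNP100, 98.5, 95.9 and 98.1 with SNP50, 155, 154 and 147 with MSNP and 172, 166 and 157 with HMSNP. The MSNP libraries lay above all control, SNP100 and SNP50 libraries, and the HMSNP libraries lay just above those of MSNP. Its log2 fold change was 0.46 ± 0.067 (SE, adjusted p = 9.73e-05) with MSNP and 0.58 ± 0.067 (SE, adjusted p = 0.000104) with HMSNP. Idi1, the isomerase of the isoprenoid building block, was at 40.4, 44.0 and 34.8 CPM in the nontreated controls, 38.6, 36.9 and 36.4 with SNP100, 29.8, 31.9 and 33.9 with SNP50, 49.2, 46.8 and 45.3 with MSNP and 60.4, 57.2 and 53.1 with HMSNP. Here the HMSNP libraries lay above all others, with a log2 fold change of 0.52 ± 0.0862 (SE, adjusted p = 0.00237) against the controls and 0.27 ± 0.0859 (SE, adjusted p = 0.0367) against MSNP. The second of these calls was lost in turn without Control replicate 1, SNP100 replicate 1, SNP50 replicate 1 or 2, any MSNP library, or HMSNP replicate 1 or 2 (highest adjusted p = 0.157). Against SNP100, MSNP raised Idi1 by 0.34 (adjusted p = 0.0122) and Hmgcs1 by 0.37 (adjusted p = 0.000977) on the log2 scale, and the Idi1 call was lost without SNP100 replicate 2 or 3 or MSNP replicate 1 or 2 (highest adjusted p = 0.0778).

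Mvk and Mvd, the kinase and the decarboxylase that act on mevalonate and its diphosphate, were measured in controls that overlapped the treated groups. Mvk was at 22.3, 22.1 and 34.9 CPM in the nontreated controls, 20.8, 20.1 and 20.9 with SNP100, 21.5, 20.8 and 19.5 with SNP50, 32.5, 28.7 and 25.3 with MSNP and 28.0, 28.6 and 25.9 with HMSNP. Mvd was at 46.3, 42.9 and 63.2 CPM in the nontreated controls, 42.4, 39.0 and 44.9 with SNP100, 40.6, 39.3 and 38.8 with SNP50, 59.7, 58.2 and 52.1 with MSNP and 56.2, 55.7 and 50.5 with HMSNP. In both genes Control replicate 3 was the highest library of all 15, and no treated group was called against the controls. Every MSNP library lay above every SNP100 library, with log2 fold changes of 0.48 ± 0.144 (SE, adjusted p = 0.03) for Mvk and 0.43 ± 0.117 (SE, adjusted p = 0.0187) for Mvd. The Mvk call was lost without any SNP100 library or MSNP replicate 1 or 2 (highest adjusted p = 0.113) and with the length offset (adjusted p = 0.134), and the Mvd call without SNP100 replicate 2 or MSNP replicate 1 or 2 (highest adjusted p = 0.0800). Pmvk, the kinase between them, was at 20.4, 19.1 and 30.3 CPM in the nontreated controls, 17.4, 18.3 and 16.2 with SNP100, 21.2, 19.8 and 18.6 with SNP50, 18.6, 16.5 and 17.8 with MSNP and 20.8, 20.7 and 22.2 with HMSNP. All MSNP libraries lay below all control libraries, with a log2 fold change of -0.40 ± 0.136 (SE, adjusted p = 0.0471) that became -0.15 (adjusted p = 0.128) without Control replicate 3 and was lost without 10 of the 12 treated libraries in turn, SNP100 replicate 2 and SNP50 replicate 3 excepted (highest adjusted p = 0.145). Acat2, the thiolase of the first step, ranged from 34.4 to 46.8 CPM over the 15 libraries, and Fdps, farnesyl diphosphate synthase, from 157 to 304 CPM. Neither was called in any comparison, and without Control replicate 3 Fdps was at 0.26 (adjusted p = 0.00114) with MSNP and 0.42 (adjusted p = 5.56e-05) with HMSNP.

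In the squalene steps, Sqle, the epoxidase that is a rate-limiting enzyme of sterol synthesis, was at 175, 188 and 186 CPM in the nontreated controls, 166, 169 and 173 with SNP100, 142, 146 and 150.4 with SNP50, 251, 242 and 223 with MSNP and 239, 238 and 224 with HMSNP. The MSNP and HMSNP libraries overlapped each other and lay above all others, and the SNP50 libraries lay below all others. The log2 fold changes were 0.39 ± 0.0612 (SE, adjusted p = 0.00023) with MSNP, 0.35 ± 0.0612 (SE, adjusted p = 0.00318) with HMSNP and -0.32 ± 0.0613 (SE, adjusted p = 0.0173) with SNP50, the last of which was lost without any SNP50 library (highest adjusted p = 0.126). Between HMSNP and MSNP the difference was -0.03, with a 95% interval of -0.16 to 0.10, and was not called. Lss, which closes the ring to lanosterol, was at 63.9, 68.3 and 52.2 CPM in the nontreated controls, 56.0, 61.3 and 57.8 with SNP100, 51.4, 50.9 and 53.3 with SNP50, 89.8, 89.3 and 91.1 with MSNP and 75.8, 75.0 and 78.7 with HMSNP. It was highest in the MSNP libraries, at a log2 fold change of 0.55 ± 0.083 (SE, adjusted p = 0.00014) against the controls, and next highest in the HMSNP libraries, at 0.32 ± 0.0829 (SE, adjusted p = 0.0405). The latter call was lost without Control replicate 1 (adjusted p = 0.0514), without any 1 of the 12 treated libraries (highest adjusted p = 0.133) and with the length offset (adjusted p = 0.404). Fdft1, squalene synthase, ranged from 48.8 to 82.6 CPM and was called in no comparison, though without Control replicate 3 it was at 0.28 (adjusted p = 0.00437) with HMSNP. Its annotated exons overlap those of Ctsb on the opposite strand by 1184 bases, and the strand setting of the counting is not given in the sources used here.

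Of the 8 genes from lanosterol to cholesterol, 3 rose with MSNP, where 11.8% of tested genes did, and 2 with HMSNP, where 2.46% did. Without Control replicate 3 the counts were 7 and 6, where 3203 and 876 of all 19611 tested genes were called higher. Sc5d, a desaturase of the sterol ring, was at 48.6, 51.6 and 51.8 CPM in the nontreated controls, 53.5, 53.0 and 52.8 with SNP100, 40.9, 45.5 and 43.3 with SNP50, 81.0, 78.6 and 73.3 with MSNP and 60.9, 59.8 and 56.7 with HMSNP. Dhcr7, which makes cholesterol from its direct precursor, was at 42.9, 44.7 and 40.9 CPM in the nontreated controls, 42.3, 42.3 and 42.5 with SNP100, 39.4, 41.9 and 40.9 with SNP50, 66.4, 63.5 and 62.4 with MSNP and 47.6, 51.1 and 49.1 with HMSNP. In both genes the MSNP libraries lay above all others and the HMSNP libraries lay between them and the rest. Sc5d had log2 fold changes of 0.62 ± 0.0646 (SE, adjusted p = 3.72e-06) with MSNP and 0.22 (adjusted p = 0.0614) with HMSNP, and Dhcr7 had 0.58 ± 0.0602 (SE, adjusted p = 3.23e-06) and 0.20 (adjusted p = 0.0694). Tested directly, HMSNP was lower than MSNP, with log2 fold changes of -0.39 ± 0.0643 (SE, adjusted p = 0.000327) for Sc5d and -0.38 ± 0.0599 (SE, adjusted p = 0.000231) for Dhcr7. Hsd17b7, a ketoreductase of the pathway, showed the other order and was at 57.5, 63.9 and 46.3 CPM in the nontreated controls, 57.5, 56.7 and 57.2 with SNP100, 40.1, 47.4 and 48.6 with SNP50, 80.2, 80.8 and 76.2 with MSNP and 92.9, 92.0 and 85.1 with HMSNP. The HMSNP libraries lay above those of MSNP, both above the controls, with log2 fold changes of 0.69 ± 0.102 (SE, adjusted p = 0.000991) and 0.50 ± 0.101 (SE, adjusted p = 0.00189). The difference between HMSNP and MSNP was 0.19 with a 95% interval of -0.03 to 0.40 and was not called.

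Cyp51, the demethylase that acts on lanosterol, was at 126, 134 and 155 CPM in the nontreated controls, 117, 122 and 123 with SNP100, 102, 102 and 102 with SNP50, 166, 157 and 154 with MSNP and 185, 184 and 176 with HMSNP. It rose with HMSNP, at a log2 fold change of 0.40 ± 0.0711 (SE, adjusted p = 0.00408) that was lost with the length offset (adjusted p = 0.203), and fell with SNP50, at -0.44 ± 0.0713 (SE, adjusted p = 0.0068), and the MSNP value of 0.20 (adjusted p = 0.0523) was not called. Msmo1, an oxidase of the next steps, was at 149, 153 and 217 CPM in the nontreated controls, 139, 141 and 145 with SNP100, 125, 118 and 126 with SNP50, 196, 185 and 179 with MSNP and 201, 197 and 184 with HMSNP. Control replicate 3 was again the highest library, and the SNP50 libraries lay below all others. The log2 fold change with SNP50 was -0.49 ± 0.111 (SE, adjusted p = 0.0444), lost when any 1 of the 12 treated libraries was left out (highest adjusted p = 0.185) and -0.30 (adjusted p = 0.000782) without Control replicate 3. Nsdhl, a dehydrogenase that removes methyl groups, was at 48.4, 55.3 and 58.6 CPM in the nontreated controls, 47.6, 49.4 and 47.5 with SNP100, 45.0, 48.2 and 44.9 with SNP50, 64.6, 60.9 and 58.7 with MSNP and 61.8, 64.5 and 58.0 with HMSNP. It was called between MSNP and SNP100, at 0.35 ± 0.0766 (SE, adjusted p = 0.00421), where the groups did not overlap. Tm7sf2 and Ebp, a reductase and an isomerase of the sterol ring, ranged from 5.39 to 8.62 CPM and from 33.1 to 52.8 CPM and were called in no comparison. Against SNP100, MSNP raised 12 of the 18 sterol genes and lowered 0, where 10.4% of tested genes were called higher and 7.53% lower. Over all 34 genes the count was 14 higher and 3 lower, and the median was 0.29 for the listed genes and -0.03 for all tested genes. Without Control replicate 3 it was 21 higher and 4 lower, where 33.1% of tested genes were called in either direction. The other higher genes were Acss2, at 1.45 (adjusted p = 1.47e-07), and Insig1, at 0.92 (adjusted p = 2.1e-07), and the lower genes were Fads2, at -0.68 (adjusted p = 7.52e-06), Scd2, at -0.29 (adjusted p = 0.00757), and Stard4. The Scd2 call was lost without SNP100 replicate 1 (adjusted p = 0.0597) or MSNP replicate 3 (adjusted p = 0.0607). These groups had different doses.

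Insig1, whose product holds back SREBP release when sterol is plentiful and which is itself an SREBP target, had the largest rise of the regulators. It was at 58.7, 58.8 and 54.8 CPM in the nontreated controls, 61.0, 67.4 and 59.4 with SNP100, 50.8, 53.6 and 53.7 with SNP50, 126, 116 and 114 with MSNP and 93.6, 84.5 and 84.4 with HMSNP. The MSNP libraries lay about 2.06-fold above the controls, the HMSNP libraries lay between, and the SNP50 libraries lay below the controls, with -0.12 (adjusted p = 0.541). The log2 fold changes were 1.05 ± 0.0719 (SE, adjusted p = 3.64e-08) with MSNP, 0.61 ± 0.0715 (SE, adjusted p = 0.000125) with HMSNP and -0.44 ± 0.071 (SE, adjusted p = 0.000302) between HMSNP and MSNP. Srebf2, which encodes the sterol branch factor, was at 268, 297 and 229.7 CPM in the nontreated controls, 264, 244 and 264 with SNP100, 221, 252 and 247 with SNP50, 301, 306 and 285 with MSNP and 355, 364 and 341 with HMSNP. It was above all other libraries with HMSNP, at a log2 fold change of 0.42 ± 0.085 (SE, adjusted p = 0.0104), which was not called without HMSNP replicate 1 (adjusted p = 0.0521) or HMSNP replicate 2 (adjusted p = 0.0529). With MSNP it had 0.17 (adjusted p = 0.185) and was not called. Srebf1, which encodes the fatty acid branch factor, was at 92.4, 95.2 and 94.1 CPM in the nontreated controls, 93.7, 89.8 and 95.95 with SNP100, 98.4, 93.7 and 91.3 with SNP50, 87.1, 91.2 and 86.7 with MSNP and 110.5, 107 and 113 with HMSNP. The HMSNP libraries lay above all others, by 0.23 ± 0.0575 (SE, adjusted p = 0.0316) against the controls and 0.32 ± 0.0575 (SE, adjusted p = 0.000736) against MSNP. The first of these was lost without any HMSNP library (highest adjusted p = 0.123), without SNP50 replicate 2 (adjusted p = 0.0502) and with the length offset (adjusted p = 0.197). Counts per gene do not separate the Srebf1 isoforms.

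Stard4, a carrier of cholesterol between membranes, went in opposite directions with the porous particles. It was at 58.0, 67.6 and 52.8 CPM in the nontreated controls, 63.0, 58.0 and 57.8 with SNP100, 49.6, 54.6 and 54.2 with SNP50, 51.1, 49.3 and 49.2 with MSNP and 82.6, 82.3 and 77.4 with HMSNP. All HMSNP libraries lay above every other library, and all MSNP libraries lay below every control library and overlapped SNP50. The log2 fold changes were 0.44 ± 0.0833 (SE, adjusted p = 0.00562) with HMSNP and -0.25 ± 0.0836 (SE, adjusted p = 0.0407) with MSNP, and 0.70 ± 0.0836 (SE, adjusted p = 1.63e-05) between them. The MSNP call was lost when Control replicate 1 or 2 or any 1 of the 12 treated libraries was left out (highest adjusted p = 0.155), and was -0.32 (adjusted p = 0.00103) without Control replicate 3. Against SNP100, MSNP had -0.26 (adjusted p = 0.0456), which was lost when Control replicate 1 or any 1 of the treated libraries was left out (highest adjusted p = 0.213). Scap, which encodes the escort protein, ranged from 72.9 to 98.5 CPM and was called in no comparison.

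**Figure D3:**
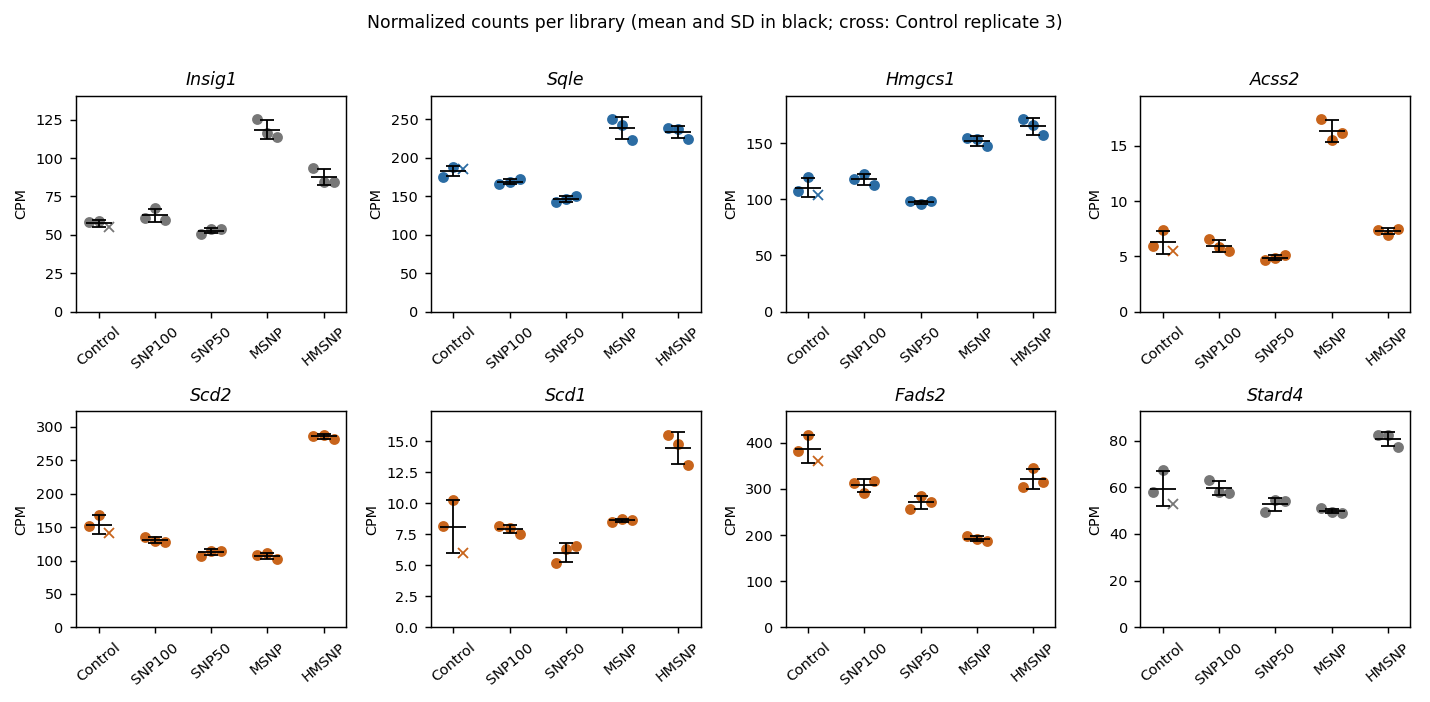
CPM (y axis, from 0) of 8 genes in every library of the 5 groups (x axis), with the group mean and SD of 3 libraries in black and Control replicate 3 as a cross. Acss2 and Insig1 are highest with MSNP, Scd2, Scd1 and Stard4 are highest with HMSNP, Sqle is similar in these 2 groups, and Fads2 is lowest with MSNP.

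In the fatty acid branch, the enzymes that supply acetyl-CoA and NADPH differed among themselves. Acss2, which makes acetyl-CoA from acetate, lies at chr2:155355679-155428016 of GRCm39 and was at 5.97, 7.402 and 5.44 CPM in the nontreated controls, 6.56, 5.88 and 5.46 with SNP100, 4.69, 4.85 and 5.09 with SNP50, 17.5, 15.5 and 16.2 with MSNP and 7.35, 6.95 and 7.49 with HMSNP. The MSNP libraries lay far above all others, and the HMSNP libraries overlapped the controls. Its log2 fold changes were 1.38 ± 0.109 (SE, adjusted p = 1.7e-07) with MSNP (2.61-fold) and 0.21 (adjusted p = 0.248) with HMSNP, and HMSNP was lower than MSNP, at -1.17 ± 0.108 (SE, adjusted p = 9.81e-07). Me1, the malic enzyme that makes cytosolic NADPH, was at 63.5, 71.7 and 59.4 CPM in the nontreated controls, 55.3, 56.5 and 58.7 with SNP100, 48.5, 51.9 and 47.04 with SNP50, 55.3, 52.4 and 48.1 with MSNP and 40.5, 47.2 and 42.7 with HMSNP. All treated libraries lay below all control libraries, and the HMSNP libraries were lowest except that 1 of them overlapped SNP50. The log2 fold changes were -0.58 ± 0.0847 (SE, adjusted p = 0.000931) with HMSNP, -0.32 ± 0.0845 (SE, adjusted p = 0.012) with MSNP and -0.40 ± 0.0846 (SE, adjusted p = 0.0322) with SNP50, while SNP100 had -0.19 (adjusted p = 0.446). The MSNP call was lost without MSNP replicate 3 (adjusted p = 0.0869) or MSNP replicate 2 (adjusted p = 0.0501), and the SNP50 call without 12 of the 15 libraries in turn, Control replicate 3, SNP100 replicate 2 and HMSNP replicate 2 excepted (highest adjusted p = 0.182). HMSNP was lower than MSNP, at -0.26 ± 0.0847 (SE, adjusted p = 0.0448), a call lost without 11 libraries in turn, Control replicates 2 and 3, MSNP replicate 3 and HMSNP replicate 2 excepted (highest adjusted p = 0.229). Acly, which makes acetyl-CoA from citrate, ranged from 173 to 322 CPM and was called in no comparison.

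Chain synthesis was measured with a wide spread among the controls. Fasn, fatty acid synthase, was at 310.3, 387 and 176 CPM in the nontreated controls, 362, 338 and 361 with SNP100, 312, 373 and 345 with SNP50, 436, 493 and 408 with MSNP and 444, 466 and 423 with HMSNP. The control libraries ranged from 176 to 387 CPM, with Control replicate 3 the lowest of all 15, and the MSNP and HMSNP libraries lay above every control. The log2 fold change was 0.61 ± 0.19 (SE, adjusted p = 0.0296) with MSNP and 0.61 (adjusted p = 0.0796) with HMSNP, and without Control replicate 3 the values were 0.36 (adjusted p = 0.0061) and 0.35 (adjusted p = 0.0253). The MSNP call was lost without MSNP replicate 1 (adjusted p = 0.0705) or 2 (adjusted p = 0.120). HMSNP and MSNP differed by 0.00, with a 95% interval of -0.41 to 0.40. Acaca, the carboxylase that commits acetyl-CoA to fatty acids, ranged from 21.3 CPM in Control replicate 3 to 80.6 CPM in an HMSNP library and was called in no comparison. Lpin1, a phosphatidate phosphatase of lipid assembly, ranged from 1.80 to 7.43 CPM and was not called either, at 0.85 (adjusted p = 0.0578) with HMSNP, which became 0.51 (adjusted p = 0.0176) without Control replicate 3.

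The 5 listed enzymes that elongate and desaturate fatty acids were all higher with HMSNP than with MSNP. Scd2, a desaturase that puts the first double bond into saturated chains, lies at chr19:44281613-44295303 of GRCm39 and was at 151, 168 and 142 CPM in the nontreated controls, 135, 129 and 128 with SNP100, 107, 115 and 115 with SNP50, 108, 111 and 102 with MSNP and 286, 288 and 282 with HMSNP. Every HMSNP library lay above every control library, and every MSNP, SNP50 and SNP100 library lay below every control library. The means were 286 ± 3.23 CPM with HMSNP, 107 ± 4.72 with MSNP and 154 ± 13.6 in the controls (SD, n = 3). The log2 fold changes were 0.89 ± 0.0692 (SE, adjusted p = 1.71e-06) with HMSNP, -0.53 ± 0.0691 (SE, adjusted p = 3.64e-05) with MSNP and -0.45 ± 0.0691 (SE, adjusted p = 0.00458) with SNP50, where leaving out SNP50 replicate 1 gave an adjusted p of 0.0559. Between HMSNP and MSNP the log2 fold change was 1.42 ± 0.0701 (SE, adjusted p = 1.19e-09), or 2.68-fold. Scd1, its relative and the main form in liver, was lower in level and was at 8.13, 10.3 and 5.96 CPM in the nontreated controls, 8.17, 8.03 and 7.56 with SNP100, 5.17, 6.32 and 6.56 with SNP50, 8.53, 8.72 and 8.63 with MSNP and 15.5, 14.8 and 13.1 with HMSNP. The HMSNP libraries lay above all others, at 0.83 ± 0.15 (SE, adjusted p = 0.00409) against the controls and 0.75 ± 0.149 (SE, adjusted p = 0.00182) against MSNP, and with MSNP it had 0.09 (adjusted p = 0.73). Of the stretches of 100 bases in the Scd1 transcript, 0.975% also occur in Scd2, which had 85298 counts over the 15 libraries against 4844 for Scd1, and the part of shared reads in the Scd1 values was not tested.

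Elovl6, the elongase of saturated C16 chains, was at 31.5, 32.8 and 23.7 CPM in the nontreated controls, 28.0, 28.4 and 29.96 with SNP100, 24.1, 26.2 and 25.9 with SNP50, 27.7, 26.9 and 23.9 with MSNP and 39.7, 37.6 and 38.9 with HMSNP. The HMSNP libraries lay above all others, and the log2 fold change was 0.57 ± 0.103 (SE, adjusted p = 0.000783) against MSNP and 0.40 ± 0.102 (SE, adjusted p = 0.0352) against the controls. The second call was lost without 11 of the 12 treated libraries in turn, SNP100 replicate 3 excepted (highest adjusted p = 0.134). Fads1 and Fads2, the desaturases of polyunsaturated fatty acids, fell with MSNP and SNP50. Fads1 was at 367, 378 and 330.5 CPM in the nontreated controls, 305, 296 and 292 with SNP100, 256, 285 and 275 with SNP50, 274, 261 and 262 with MSNP and 365, 392 and 377 with HMSNP. Its HMSNP libraries overlapped the controls, and all other treated libraries lay below all controls. Fads2 was at 382, 418 and 359.5 CPM in the nontreated controls, 314, 291 and 318 with SNP100, 258, 284 and 271 with SNP50, 199, 193 and 186 with MSNP and 304, 346 and 314 with HMSNP. All treated libraries lay below all controls, and the MSNP libraries lay below all others. With MSNP the log2 fold changes were -0.43 ± 0.0652 (SE, adjusted p = 0.000145) for Fads1 and -1.005 ± 0.0739 (SE, adjusted p = 7.69e-08) for Fads2, and with SNP50 they were -0.40 ± 0.0652 (SE, adjusted p = 0.00709) and -0.51 ± 0.0734 (SE, adjusted p = 0.00286), the first of which was lost without SNP50 replicate 1 (adjusted p = 0.0817). With HMSNP, Fads1 had 0.08 (adjusted p = 0.485) and Fads2 had -0.27 (adjusted p = 0.0497), and the latter was lost when any library other than Control replicate 3 was left out (highest adjusted p = 0.247), and was -0.32 (adjusted p = 0.00342) without Control replicate 3. HMSNP was higher than MSNP by 0.51 ± 0.0652 (SE, adjusted p = 3.18e-05) for Fads1 and 0.74 ± 0.0736 (SE, adjusted p = 2.29e-06) for Fads2. SNP100 had -0.33 (adjusted p = 0.0511) for Fads2 and -0.27 (adjusted p = 0.0767) for Fads1, which became -0.38 (adjusted p = 0.00158) and -0.33 (adjusted p = 0.000961) without Control replicate 3.

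HMSNP and MSNP were given at the same dose and nominal diameter, though the paper describes HMSNPs as low in density and distinct in surface composition. HMSNP and MSNP differed in 13 of the 34 genes, of which 8 were higher and 5 lower with HMSNP. Over all tested genes 9.22% were called higher and 11% lower, and the median was 0.14 for the listed genes and 0.00 for all tested genes. The genes that were higher were Scd2, Scd1, Fads2, Stard4, Elovl6, Fads1, Srebf1 and Idi1, and the genes that were lower were Acss2, Insig1, Sc5d, Dhcr7 and Me1. By role, 5 of 5 listed elongation and desaturation genes were higher (median 0.74) and 2 of 3 supply genes were lower. This did not extend to Elovl5, Hsd17b12, Tecr and Hacd3, chain elongation genes outside the 34. The HMSNP libraries of Elovl5, Hsd17b12 and Tecr lay below those of MSNP without a call, and those of Hacd3 overlapped them. Of 18 sterol genes, 1 was higher and 2 were lower, with a median of 0.03. The counts were 6 and 3 without Control replicate 3, where 3039 and 3605 of all 19611 tested genes were called. With the length offset they were 4 and 3, where 2665 and 2690 of all 19839 tested genes were called. Without Control replicate 3, which is in neither group, 16 were higher and 6 lower, where 33.9% of tested genes were called in either direction, and of the 13 called genes 11 were called under every alternative tried, with Idi1 and Me1 as the exceptions.

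**Figure D4:**
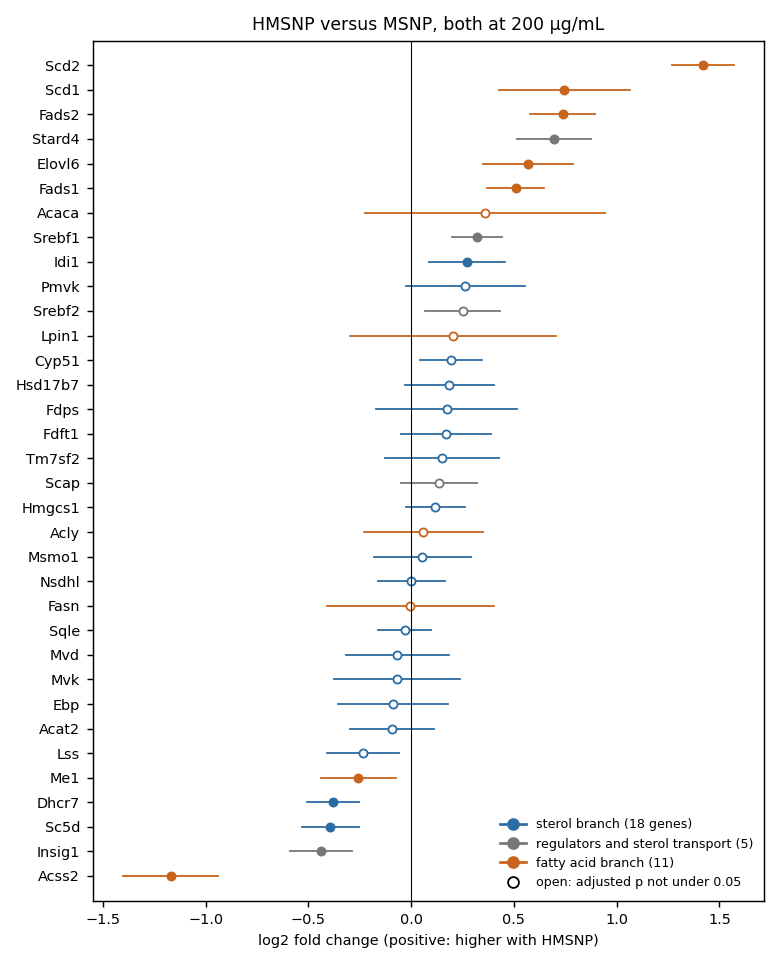
Log2 fold change of HMSNP versus MSNP (x axis, positive where HMSNP is higher) for the 34 genes (y axis) ordered by value, with 95% confidence intervals from 3 libraries a group and branches as colours. Filled points have an adjusted p under 0.05, with 8 genes above 0 led by Scd2 at 1.42 and 5 below 0 led by Acss2 at -1.17.

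The branches were compared by the difference of their median log2 fold changes, as a description without a test. Between HMSNP and MSNP the fatty acid branch had a median of 0.36 and the sterol branch 0.03, a difference of 0.33, which was 0.18 with an offset for transcript length fitted in each library. Within the fatty acid branch the values ran from -1.17 to 1.42, and within the sterol branch from -0.39 to 0.27. Between MSNP and SNP100 the order was reversed, at 0.07 for the fatty acid branch and 0.38 for the sterol branch, a difference of -0.31. Against the controls the difference was 0.23 with HMSNP, -0.08 with MSNP, -0.09 with SNP50 and 0.12 with SNP100. Leaving out Control replicate 3 gave -0.00808 with HMSNP, -0.39 with MSNP, -0.26 with SNP50 and -0.10 with SNP100, and leaving out Control replicate 2 gave 0.39, 0.18, 0.02 and 0.25, so that the branch difference against the controls depended on which control libraries were used.

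The mean log2 CPM of each branch was also taken in every library. The sterol branch lay at 5.72, 5.75 and 5.98 in the controls, 5.67, 5.69 and 5.68 with SNP100, 5.55, 5.56 and 5.57 with SNP50, 6.07, 6.01 and 5.97 with MSNP and 6.05, 6.06 and 5.98 with HMSNP. The MSNP and HMSNP groups overlapped each other and Control replicate 3, and the SNP50 libraries lay below all others. The fatty acid branch lay at 5.88, 6.13 and 5.43 in the controls, 5.84, 5.80 and 5.82 with SNP100, 5.50, 5.68 and 5.64 with SNP50, 5.97, 5.97 and 5.87 with MSNP and 6.24, 6.26 and 6.17 with HMSNP. The HMSNP libraries lay above all others. The difference of the branches, fatty acid minus sterol, was 0.20 ± 0.0083 (SD, n = 3) with HMSNP, -0.08 ± 0.0343 with MSNP, 0.14 ± 0.0285 with SNP100 and 0.05 ± 0.0900 with SNP50. In the controls it was 0.16, 0.38 and -0.55, so that Control replicate 3 lay below and Control replicate 2 above every treated library.

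**Figure D5:**
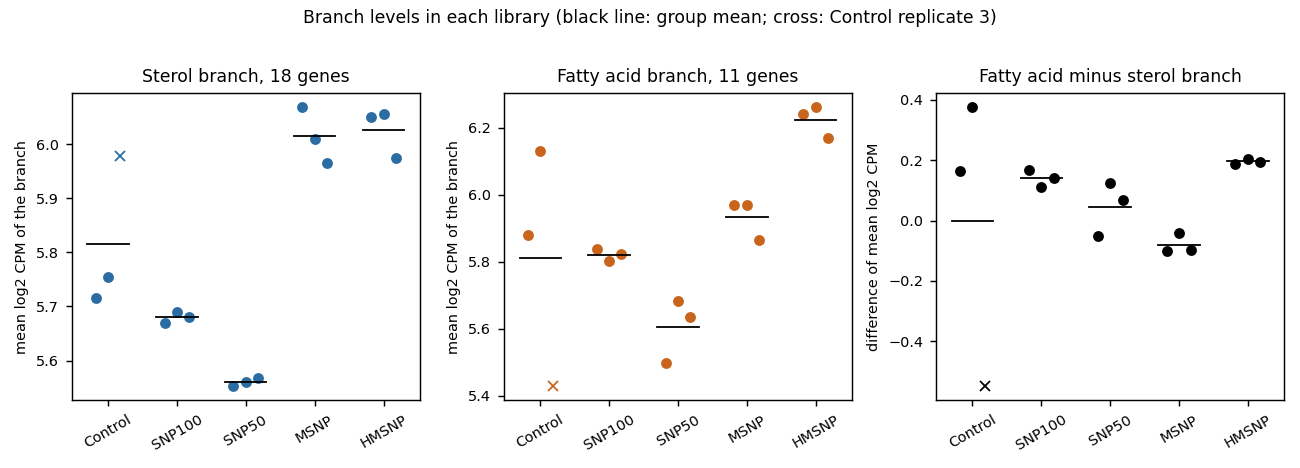
Mean log2 CPM of the 18 sterol genes, of the 11 fatty acid genes, and their difference (y axes) in each library of the 5 groups (x axes), with the group mean as a black line and Control replicate 3 as a cross. The fatty acid minus sterol difference lies at 0.19 to 0.21 with HMSNP and at -0.10 to -0.04 with MSNP.

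Other SREBP targets and pathway genes, from a list of 22 of which 21 were tested, were described in the same comparisons. With MSNP 5 rose and 0 fell, where 11.8% of tested genes rose and 11% fell. With HMSNP 5 rose and 0 fell, where 2.46% rose and 2.7% fell. With SNP50 1 fell, where 0.958% did. With SNP100 0 were called in edgeR, with 4 of the 21 at an unadjusted p under 0.05, against 2085 of all 19839 tested genes. The median of the list was 0.14 with MSNP, 0.09 with HMSNP, -0.09 with SNP50 and -0.06 with SNP100. Between HMSNP and MSNP 1 was higher and 3 were lower of the 21, near the shares of 9.22% and 11% over all tested genes. Insig2, the relative of Insig1, was at 17.2, 18.8 and 20.6 CPM in the controls, 28.5, 26.2 and 24.3 with MSNP and 16.4, 17.5 and 16.9 with HMSNP. It rose with MSNP, at 0.48 ± 0.0932 (SE, adjusted p = 0.00137), and was lower with HMSNP than with MSNP, at -0.64 ± 0.0934 (SE, adjusted p = 0.000115). Aacs, which activates acetoacetate for lipid synthesis, also rose with MSNP, at 0.54 ± 0.0706 (SE, adjusted p = 3.53e-05), and was lower with HMSNP than with MSNP, at -0.38 ± 0.0703 (SE, adjusted p = 0.00102). Mid1ip1, a protein that promotes the activity of acetyl-CoA carboxylase, was lower with HMSNP than with MSNP, at -0.37 ± 0.0841 (SE, adjusted p = 0.00473). Elovl5, an elongase of polyunsaturated chains, rose with MSNP, at 0.53 ± 0.0773 (SE, adjusted p = 0.000108), and with HMSNP, at 0.31 ± 0.0771 (SE, adjusted p = 0.0345). Its HMSNP libraries lay below those of MSNP, at -0.22 (adjusted p = 0.0561), which was not called. Acsl3, which activates long-chain fatty acids, rose with HMSNP, at 0.34 ± 0.0792 (SE, adjusted p = 0.0212).

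Some listed genes share sequence or exons with others, which could affect their counts. Of the stretches of 100 bases in a transcript, 42.8% of Acaca are shared with the pseudogene Gm5182, 29.6% of Acat2 with Acat3 and 23.5% of Idi1 with Idi1-ps1, whose counts over the 15 libraries were 217, 109 and 247. Hmgcs1 shares 5.48% with Baz1a, which had 56090 counts. Annotated exons of Me1 overlap those of Rwdd2a by 2146 bases, those of Acss2 overlap Gss by 1511 bases, and those of Cyp51 overlap Akap9 by 1253 bases, all on the opposite strand. Gss had 13489 counts over the 15 libraries and Acss2 had 4281. Tm7sf2 overlaps Vps51 on the same strand by 532 bases. The part of these overlaps in the values was not tested.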

How the data were processed

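RNA was measured in 15 libraries of RAW 264.7 macrophages, 3 in each of 5 groups, taken from the sample labels. The time came from the labels and the doses from the study's methods. The authors prepared directional poly(A) libraries, and the submitters' processing notes name cutadapt 1.16, STAR 2.7.9a, featureCounts 1.6.3 and the build GRCm39, without their roles. The deposited table holds whole-number counts per gene, not normalized, with replicates kept apart and 29369934 to 42617812 counts per library. The annotation and the strand setting of the counting are not given in the sources used here. Symbols, positions and transcript lengths were taken from GENCODE vM39.

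The 34 genes, their branches and the other gene lists were chosen with earlier results of these data known. Genes with at least 10 counts over the libraries were tested in R 4.3.3 with edgeR 4.0.16, by TMM normalization, 1 model of all 15 libraries (10 residual degrees of freedom) and the quasi-likelihood test. Adjustment was by Benjamini-Hochberg over all 19839 tested genes in each of 7 comparisons, with a threshold of 0.05. Fold changes, SE (from the quasi-likelihood F statistic) and 95% intervals are on the log2 scale. Branch levels used log2 CPM with a prior count of 2. On simulated counts with 200 changed genes, the steps were tested before use. All 34 genes were to be named, with every library's values for those called in at least 1 comparison. Genes of other lists were named where called with MSNP, HMSNP or between them, at most 6 per list by p, and some of these are not reported here. Alternatives were DESeq2 1.42.0, RLE normalization, the filterByExpr filter, no filter, a replicate block, a transcript length offset, only the 6 libraries of a comparison, and leaving out each library in turn.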

Additional observations from a re-analysis of the deposited data

Results flagged for a closer look

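Stard4 and Scd2 stood out because their calls against the controls went in opposite directions with MSNP and HMSNP. The difference between these groups was itself tested. Its direction followed from this choice of genes in the same libraries, so the test gives its size and is not separate support. For Stard4 the log2 fold change between HMSNP and MSNP was 0.70 ± 0.0836 (SE, adjusted p = 1.63e-05) in edgeR, with every HMSNP library above every MSNP library. For Scd2 it was 1.42 ± 0.0701 (SE, adjusted p = 1.19e-09), again without overlap. Stard4 lowered by MSNP was the weaker call, since it was lost in 17 of 22 alternatives, and the direct difference between HMSNP and MSNP was kept in all 22 for both genes.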

How the results depend on the processing

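Over 7 comparisons 67 gene results were called, and 0 of them changed direction under any alternative. DESeq2 and the filterByExpr filter kept all 67, RLE normalization lost 5, no filter 9, the length offset 4 and the fits with only the 6 libraries of a comparison 26. Leaving out 1 library lost 151 of 1005. All alternatives kept 11 of 13 calls between HMSNP and MSNP, 11 of 17 between MSNP and SNP100, 10 of 15 with MSNP, 1 of 15 with HMSNP (Scd2) and 0 of 7 with SNP50.

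For SNP100 versus Control, 2 listed genes were called by DESeq2, 1 with filterByExpr, 4 with the length offset and 0 to 5 when 1 library was left out, against 0. In that comparison DESeq2 and the length offset also called more of all tested genes than edgeR did without the offset. For SNP50 versus Control the count of 7 became 14 with the length offset, 0 with only the 6 libraries and 2 to 21 when 1 library was left out. With the length offset, calls over all tested genes went from 90 higher and 190 lower to 340 and 593. The count of 15 ranged from 11 to 24 with MSNP and from 10 to 25 with HMSNP, and was 1 for HMSNP with only the 6 libraries. Between HMSNP and MSNP the count of 13 became 20 with the length offset, 23 with only the 6 libraries and 11 to 22 when 1 library was left out. The length offset took calls over all tested genes in that comparison from 1829 higher and 2181 lower to 2665 and 2690. The matching counts with only the 6 libraries are not given here. Between SNP50 and SNP100 the count of listed genes was 0 to 5. Among the fits with 1 library left out, the highest counts were those without Control replicate 3. The lowest count for SNP50 came without SNP50 replicate 1. The difference of branch medians with 1 library left out was -0.39 to 0.18 for MSNP and -0.00808 to 0.39 for HMSNP, and between HMSNP and MSNP it was 0.26 to 0.40. The cause of these shifts was not tested.

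With the replicate number as a block (replicate block), 6 of the 67 calls were lost. Against the controls, 0 listed genes were called with SNP100, 6 with SNP50, 14 with MSNP and 12 with HMSNP. The counts were 13 for HMSNP versus MSNP, 16 for MSNP versus SNP100 and 0 for SNP50 versus SNP100. The share of all tested genes called in this fit is not given here, so these counts stand without a background. Deviations of same-numbered libraries had correlations of -0.52 to 0.57 over 30 pairs, of which 10 were above 0.1. These 10 included all 6 pairs of replicate 2 outside SNP100, but no 2 groups had all their pairs above 0.1, and the samples were taken to share only a number.

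Control replicate 3 differs from the others with transcript length, and the branches differ in length. Treatment and the number prefix of each group's libraries cannot be told apart, and MSNP and SNP100 differ in dose as well as porosity. By the paper's account HMSNP and MSNP differ in density and surface composition, and the part of each was not tested. mRNA levels do not show enzyme activity or lipid content.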

Other observations

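LXR targets and receptors, a list of 8 genes of sterol sensing, sterol export and related lipid handling, were described in the same comparisons. Between HMSNP and MSNP 4 were higher and 1 lower, where 9.22% and 11% of tested genes were. With MSNP 2 fell, where 11% did, and with HMSNP 0 were called in edgeR (5 at an unadjusted p under 0.05). With SNP100 1 rose and 1 fell, where 0.509% and 0.403% of tested genes did. With SNP50 1 rose and 1 fell, where 0.454% and 0.958% did. Mylip, which marks lipoprotein receptors for degradation, was at 17.2, 18.01 and 15.4 CPM in the controls, 3.34, 2.83 and 3.29 with MSNP and 17.4, 18.4 and 18.9 with HMSNP. It fell with MSNP, at -2.42 ± 0.0916 (SE, adjusted p = 8.1e-11), while HMSNP had 0.11 (adjusted p = 0.41), and the difference between HMSNP and MSNP was 2.53 ± 0.0914 (SE, adjusted p = 7.37e-11). Arl4c, a small GTPase, fell with MSNP as well, at -0.72 ± 0.0872 (SE, adjusted p = 1.69e-05), and was higher with HMSNP than with MSNP, at 0.49 ± 0.0873 (SE, adjusted p = 0.000664). Lpcat3, which puts polyunsaturated chains into phospholipids, was higher with HMSNP than with MSNP, at 0.22 ± 0.0611 (SE, adjusted p = 0.0167). Abca1, a cholesterol exporter, was at 2.07, 3.12 and 1.07 CPM in the controls, 1.26, 1.46 and 1.156 with MSNP and 3.97, 4.32 and 3.25 with HMSNP, a low level, and HMSNP was higher than MSNP by 1.57 ± 0.295 (SE, adjusted p = 0.00108). Nr1h3, which encodes LXR alpha, was lower with HMSNP than with MSNP, at -0.27 ± 0.0792 (SE, adjusted p = 0.0243).

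Fatty acid oxidation genes, a list of 11 of which 10 were tested, had called members in both directions. With MSNP 2 rose and 2 fell, where 11.8% and 11% of tested genes did. Between HMSNP and MSNP 2 were higher and 2 lower, where 9.22% and 11% were. With HMSNP 1 fell, where 2.7% did, and with SNP100 and SNP50 0 were called in edgeR. At an unadjusted p under 0.05 the list had 0 with SNP100 and 2 with SNP50, against 2085 and 2384 of all 19839 tested genes. Ppard, a nuclear receptor for fatty acids, was at 20.3, 22.3 and 18.3 CPM in the controls, 36.8, 37.6 and 36.6 with MSNP and 16.9, 19.1 and 19.7 with HMSNP. It rose with MSNP, at 0.87 ± 0.0798 (SE, adjusted p = 9.17e-07), and was lower with HMSNP than with MSNP, at -0.99 ± 0.0799 (SE, adjusted p = 2.23e-07). Cpt1a, which admits fatty acids to mitochondria, was higher with HMSNP than with MSNP, at 0.50 ± 0.139 (SE, adjusted p = 0.0166). Acadvl, a dehydrogenase of long chains, fell with MSNP, at -0.49 ± 0.0938 (SE, adjusted p = 0.00113), and with HMSNP, at -0.35 ± 0.0935 (SE, adjusted p = 0.0472). Acadm, a dehydrogenase of medium chains, fell with MSNP, at -0.35 ± 0.0854 (SE, adjusted p = 0.00723).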
